A study of Mus musculus with 12 samples.

Results

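Hearts of mice kept on a fat-free diet were compared 1 week after TAC or a sham operation. TAC (transverse aortic constriction) ties a ligature around the arch of the aorta, so that the left ventricle pumps against a higher pressure. The libraries were those that the labels put on the fat-free diet, 6 of the 12 in the series, with 3 in each group. The TAC group and the sham group were both C57Bl/6J mice aged 12 weeks on a diet with 0 kcal% fat, begun 4 days before surgery. By the labels they differed in the surgery alone, so the absence of dietary fat was common to both groups and no effect of diet can be read from them. The labels name heart tissue without a chamber, and they do not say whether a library holds 1 animal or several. The spread between these libraries, from which the p-values are drawn, may therefore be technical. RNA was read as poly(A) libraries, and the values are read counts per gene that the authors divided by a size factor for each library.

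A heart under pressure load has to raise its wall tension. Its muscle cells enlarge instead of dividing, add sarcomeres and cytoskeleton, and return to genes used before birth, among them the natriuretic peptides and the skeletal isoform of alpha-actin. Fibroblasts turn into matrix-secreting cells and lay down collagen, monocytes enter from the blood and become macrophages, and the enzymes of mitochondrial fuel use usually decline.

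The libraries were alike in size and differed in markers of atrial muscle. They summed to 27731007 to 30855962 normalized counts in the TAC group and 31274316 to 33809757 in the sham group, and 16541 to 17458 genes had a count. Mitochondrial genome transcripts made up 20.8%, 21.6% and 23.6% of TAC libraries, against 27.8%, 28.4% and 26.2% in sham libraries (exact permutation test, two-sided p = 0.1, the smallest that 3 against 3 allows). The atrial light chain Myl7 exceeded 1000 normalized counts in 3 libraries. It stood at 1758, 23 and 75 in the TAC libraries, against 9915, 274 and 8426 in the sham libraries, and 11 atrial markers, Myl7 among them and Nppa left out, summed to 1402 to 9188 in TAC and 3331 to 38663 in sham hearts. With Nppa, which is treated with the peptides below, the 12 summed to 56538, 67821 and 41198 in TAC libraries, against 57630, 8312 and 39420 in sham libraries. Of the adipocyte markers, 11 summed to 773 to 1319 in TAC and 1563 to 2296 in sham hearts with Fabp4, which endothelial cells also express, left out. With Fabp4 the 12 summed to 16193 to 17557 in TAC and 13936 to 18674 in sham hearts, and the groups overlapped. Bulk values cannot tell fewer cells of a type from less RNA per cell. Lung epithelial markers summed to at most 2 in TAC and 11 in sham libraries.

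A gene is said below to have risen or fallen in TAC where its limma adjusted p (Benjamini-Hochberg over the 13995 genes tested) was under 0.1, the false discovery rate the authors used. A change held where it also passed in each of the 6 fits that left out 1 library. Of the 13995 genes, 1983 rose (14.2%) and 1400 fell (10.0%), together 24.2%. The changes that held numbered 908 upward (6.49%) and 386 downward (2.76%). Those that held and were at least 2-fold numbered 552 upward and 102 downward. The total depended on single libraries, with 1008 risers and 449 fallers left without TAC replicate 2 and 2176 and 1751 without TAC replicate 3. Scaled by library size alone, the split was 2766 higher and 704 lower. That scaling placed the median log2 fold change at 0.13, against -0.02 in the deposited scaling. Of the 1294 changes that held (9.25%), 1270 also passed with log2 Myl7 as a covariate and 1273 at library size alone. Without the 3 libraries above 1000 Myl7, limma passed 0 genes and 2117 had an unadjusted p under 0.05 in the 1 sham and 2 TAC libraries left. A fit with 1 sham library is too small to say whether a call is stable. Numbers in parentheses after a gene are its TAC over sham log2 fold change on log2(normalized count + 1), with ± giving the SE. For this SE and its p-value, limma draws each gene's spread toward a trend with abundance over all genes tested. They therefore do not measure the spread of that gene's libraries alone.

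**Figure D1:**
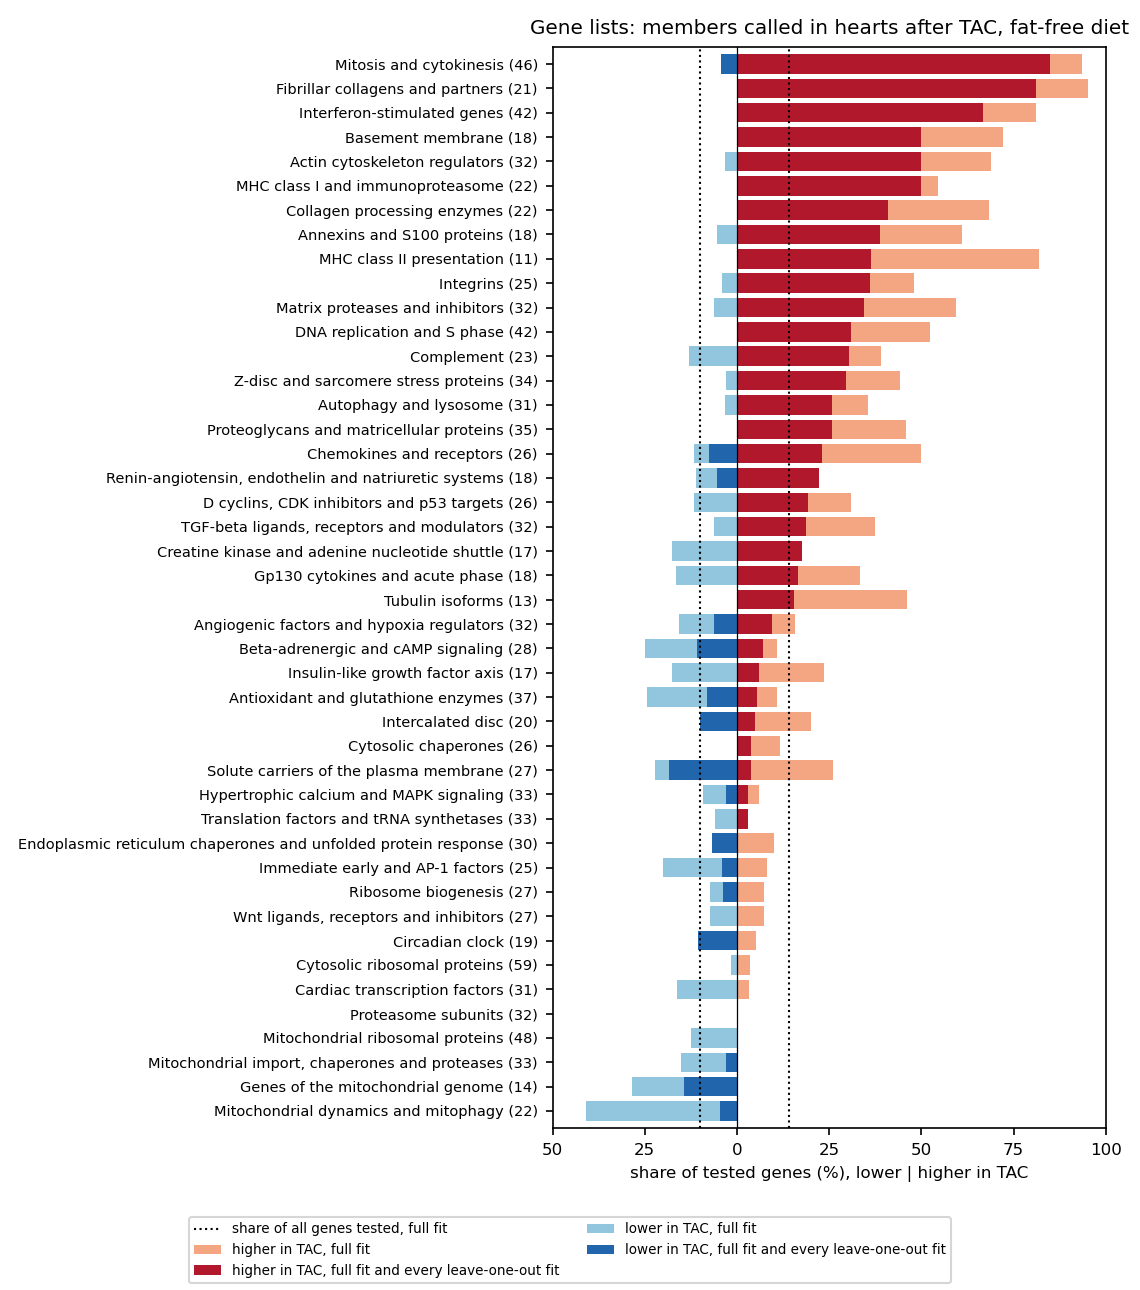
Share of each functional gene list's tested members (number in parentheses) that were lower in TAC (left, blue) or higher in TAC (right, red), in percent. Dark bars are changes that passed in the full fit and in all 6 leave-one-out fits, pale bars those that passed in the full fit, and the dotted lines mark the 10.0% and 14.2% of all genes tested. The dark bars of the mitosis, collagen and interferon lists reach farthest to the right, and the lists of mitochondrial genes at the bottom have no member higher in TAC.

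Genes of the actin cytoskeleton rose as a broad group in the TAC hearts, and those of the Z-disc rose in part. Acta1 (skeletal alpha-actin, chr8:123891767-123894736 in mm10) had 59394, 172749 and 85778 normalized counts in the TAC libraries, against 5725, 4520 and 8009 in the sham libraries. The lowest TAC library was above the highest sham library, and the log2 fold change was 4.02 ± 0.37, adjusted p = 0.00300. Ankrd1, a titin-bound muscle ankyrin repeat protein that is induced by stretch, had 130832, 178398 and 115978 normalized counts in the TAC libraries, against 49159, 22497 and 38698 in the sham libraries (1.99 ± 0.29, adjusted p = 0.00750). Xirp2, an actin-binding repeat protein of the Z-disc and intercalated disc, had 29355, 63449 and 20893 normalized counts in the TAC libraries, against 10987, 11986 and 10567 in the sham libraries (1.60 ± 0.35, adjusted p = 0.0230). The groups did not overlap for any of these genes, and TAC replicate 2 was the highest library for each. Desmin (Des), the intermediate filament that ties Z-discs together, was less spread, with 102966, 105455 and 81758 normalized counts in the TAC libraries, against 48919, 52406 and 53893 in the sham libraries (0.89 ± 0.15, adjusted p = 0.0106).

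Of the 34 Z-disc and sarcomere stress proteins tested, 10 rose and held, 5 more rose without holding, 1 fell without holding and 18 did not pass, with a median of 0.36 against -0.02 over all genes. The LIM protein gene Pdlim1 (0.99) and the Z-disc gene Synpo2l (1.31) were among those that held. Tcap, the titin cap, was the faller (-0.52 ± 0.15, adjusted p = 0.0587), and its call ended without any library other than sham replicate 3 or TAC replicate 3. Of the 32 actin regulators tested, 16 rose and held, 6 more rose without holding, 1 fell without holding and 9 did not pass, with a median of 0.60. The tropomyosin gene Tpm4 (1.05), the actin-sequestering thymosin gene Tmsb10 (1.45) and the actin-binding transgelin gene Tagln2 (1.04) had the smallest p-values of the list. Gelsolin (Gsn), which severs actin filaments and is also abundant in fibroblasts, fell instead (-1.23 ± 0.30, adjusted p = 0.0329), a call that ended without sham replicate 1 or TAC replicate 2 and with the Myl7 covariate (adjusted p = 0.123). Of the 13 tubulin isoforms tested, 2 rose and held, 4 more rose without holding and 7 did not pass. Tubb2b, a beta-tubulin of developing tissue, had 272, 359 and 146 normalized counts in the TAC libraries, against 46, 48 and 65 in the sham libraries (2.19 ± 0.33, adjusted p = 0.00776), and Tuba1a rose by 0.86. Tubulins share long stretches of sequence, so how reads were divided between isoforms is uncertain.

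Serum response factor binds the CArG box, a motif of muscle and actin genes, and the sequences are shown because Acta1 had the largest rise among contractile genes. The window was the 250 bases before each RefSeq start (GRCm38.p6), read on both strands. A CArG box was present in 5 of the 25 Z-disc genes with a promoter entry (20%) and 4 of 29 actin regulators (13.8%), against 155 of 10899 tested genes (1.42%). Of the genes with the box, 2 of 5 and 2 of 4 rose and 0 fell. In the whole lists 15 of 34 Z-disc genes and 22 of 32 actin regulators rose, and 1 of each fell. Below, 15 bases flank the box on each side, and capitals mark the box.
Acta1 (chr8:123894824-123894863, minus strand): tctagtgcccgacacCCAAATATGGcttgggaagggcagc
Actg1 (chr11:120348561-120348600, minus strand): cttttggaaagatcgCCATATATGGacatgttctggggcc
Fhl1 (chrX:56779566-56779605, plus strand): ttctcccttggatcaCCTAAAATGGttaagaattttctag
Actg1, cytoplasmic gamma-actin, rose by 0.60 and held. Fhl1, a LIM protein of the sarcomere, rose by 1.85 without holding. Its call ended without sham replicate 1, 2 or 3 or TAC replicate 1. Before another RefSeq start of Fhl1 the search gave 0 matches. Not printed are the boxes of Cnn2 and Myom1, which rose, and of Fhl2, Ldb3, Lmcd1, Myl9 and Vcl, which did not pass. No box was found in this window of Nppa, Ankrd1 or Xirp2, which says only that these letters are not in these 250 bases.

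**Figure D2:**
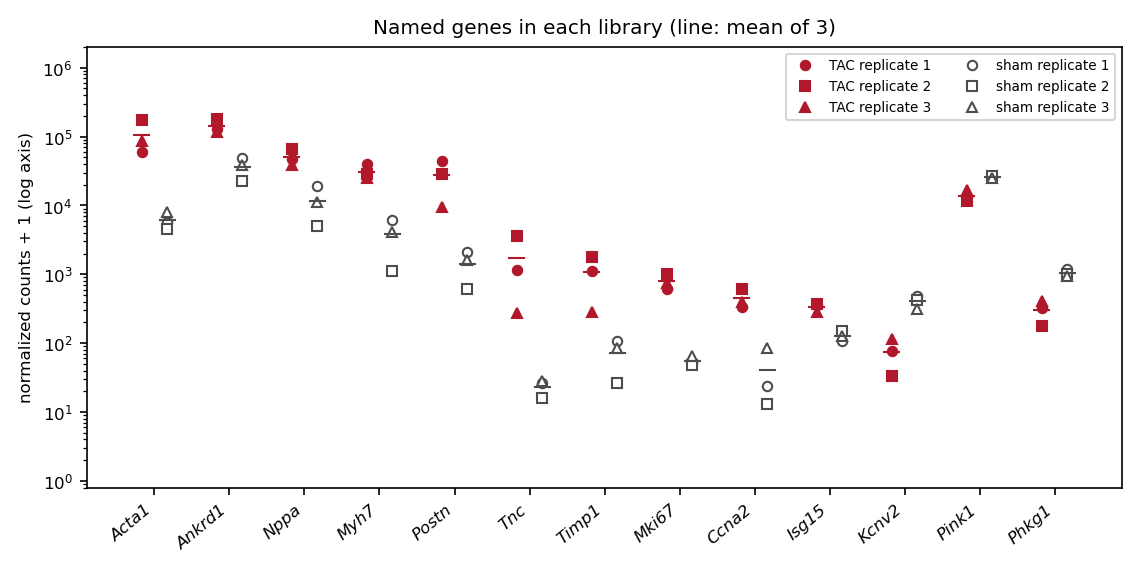
Normalized counts plus 1 on a log axis in each library for 13 named genes, with TAC libraries (filled red) to the left of sham libraries (open grey), a symbol for each replicate and a line at the mean of 3. The TAC values of the first 10 genes lie above all sham values and those of Kcnv2, Pink1 and Phkg1 below them. TAC replicate 3 is the lowest TAC library for Postn, Tnc and Timp1.

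Secreted peptides and their processing changed in both directions. Nppa, atrial natriuretic peptide, had 47350, 66419 and 39003 normalized counts in the TAC libraries, against 18967, 4981 and 11302 in the sham libraries (2.28 ± 0.44, adjusted p = 0.0160), and Nppb, the B-type peptide, had 12060, 22278 and 18451 normalized counts in the TAC libraries, against 2421, 8249 and 3832 in the sham libraries (2.01 ± 0.41, adjusted p = 0.0198). Neither gene's groups overlapped. With Myl7 as a covariate, Nppb rose by 1.12 and Nppa by 2.77, so the size of the Nppb rise depended on that term. Corin, the protease that cleaves the natriuretic propeptides, fell, with 4411, 3591 and 4850 normalized counts in the TAC libraries, against 7546, 7018 and 5615 in the sham libraries (-0.65 ± 0.15, adjusted p = 0.0262). Npr3, the receptor that clears these peptides, had 649, 348 and 468 normalized counts in the TAC libraries, against 1316, 571 and 1173 in the sham libraries, and its fall (-1.02 ± 0.33, adjusted p = 0.0765) ended without any library other than sham replicate 2 or TAC replicate 1 and with the Myl7 covariate (adjusted p = 0.296). Ace, which makes angiotensin II, had 5062, 3811 and 3107 normalized counts in the TAC libraries, against 1847, 1781 and 1893 in the sham libraries (1.09 ± 0.16, adjusted p = 0.00792). Over the renin-angiotensin, endothelin and natriuretic genes together, of 18 tested, 4 rose and held, 1 fell and held, 1 more fell without holding and 12 did not pass.

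More adrenergic signaling genes fell than rose. Of the 28 beta-adrenergic and cAMP genes tested, 2 rose and held, 3 fell and held, 1 more rose without holding, 4 more fell without holding and 18 did not pass. The cAMP phosphodiesterase genes Pde4a (-0.71) and Pde4d (-0.69) fell, while Prkar1a, the inhibitory regulatory subunit of protein kinase A, had 22139, 23734 and 19644 normalized counts in the TAC libraries, against 12317, 15060 and 13406 in the sham libraries (0.68 ± 0.12, adjusted p = 0.0117). The inhibitory G protein gene Gnai2 rose by 0.48. Adrb1, the main cardiac beta receptor, had 283, 324 and 225 normalized counts in the TAC libraries, against 472, 555 and 369 in the sham libraries (-0.74 ± 0.19, adjusted p = 0.0388), and this call ended without sham replicate 1 or sham replicate 2. Among the calcium and MAPK genes of hypertrophy, of 33 tested, 1 rose and held, 1 fell and held, 1 more rose without holding, 2 more fell without holding and 28 did not pass, and the 2 that held were the calcineurin regulator Rcan1 (1.17) and the stress kinase gene Mapk14 (-0.51). For potassium channels, Kcnd2, a pore subunit of the transient outward current, had 639, 555 and 661 normalized counts in the TAC libraries, against 1334, 1034 and 940 in the sham libraries (-0.82 ± 0.15, adjusted p = 0.0127), and Kcnv2, a silent modifier subunit, had 75, 32 and 114 normalized counts in the TAC libraries, against 480, 426 and 318 in the sham libraries (-2.61 ± 0.41, adjusted p = 0.00926). At the intercalated disc, of 20 tested, 1 rose and held, 2 fell and held, 3 more rose without holding and 14 did not pass. The desmosomal cadherin genes Dsg2 (-0.63) and Dsc2 (-0.52) fell while plakophilin Pkp2 (0.43) of the same junction rose.

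Genes of the extracellular matrix rose as a broad group. The matrix lists together took 2.25%, 1.42% and 0.912% of the counts in the TAC libraries, against 0.560%, 0.409% and 0.609% in the sham libraries (exact permutation test, two-sided p = 0.1, the smallest possible). Col1a1, a chain of type I collagen (chr11:94936270-94951867), had 29502, 10776 and 5111 normalized counts in the TAC libraries, against 1994, 1357 and 2019 in the sham libraries (2.74 ± 0.54, adjusted p = 0.0173). Col3a1, type III collagen (chr1:45311538-45349706), had 57141, 33384 and 15539 normalized counts in the TAC libraries, against 3739, 3055 and 4618 in the sham libraries (3.04 ± 0.41, adjusted p = 0.00571). TAC replicate 1 was highest and TAC replicate 3 lowest for both, and the lowest TAC value was still above every sham value. Of the 21 fibrillar collagens and their partners tested, 17 rose and held, 3 more rose without holding and 1 did not pass, with a median of 2.35. Type VIII collagen Col8a1 (3.53), the microfibril gene Fbn1 (2.58) and the collagen-binding gene Sparc (2.14) led by p-value. The basement membrane moved less far, with a median of 0.75, and of 18 tested, 9 rose and held, 4 more rose without holding and 5 did not pass. Its leading genes were nidogen Nid2 (1.18), type XV collagen Col15a1 (1.97) and type IV collagen Col4a1 (1.91).

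Enzymes that finish and cut the matrix rose with it. Of the 22 collagen processing enzymes tested, 9 rose and held, 6 more rose without holding and 7 did not pass, led by the cross-linking lysyl oxidase genes Loxl2 (2.70) and Loxl4 (1.92) and the procollagen peptidase gene Adamts2 (1.87). Of the 32 matrix proteases and inhibitors tested, 11 rose and held, 8 more rose without holding, 2 fell without holding and 11 did not pass. The metalloprotease gene Adam12 (4.10) held. Timp1, an inhibitor of metalloproteases, had 1102, 1814 and 283 normalized counts in the TAC libraries, against 106, 25 and 83 in the sham libraries (3.75 ± 0.73, adjusted p = 0.0167). Mmp9 and Timp4 were the fallers (-1.34 and -0.63), and both ended when single libraries were left out, Mmp9 in every case but TAC replicate 1 and Timp4 in every case but sham replicate 1 and TAC replicate 3. Of the 35 proteoglycans and matricellular proteins tested, 9 rose and held, 7 more rose without holding and 19 did not pass. Postn, periostin of activated fibroblasts (chr3:54361107-54391041), had 44615, 28563 and 9630 normalized counts in the TAC libraries, against 2077, 602 and 1612 in the sham libraries (4.19 ± 0.61, adjusted p = 0.00722). Tnc, tenascin-C, which is scarce in the healthy adult heart, had 1166, 3656 and 272 normalized counts in the TAC libraries, against 25, 15 and 27 in the sham libraries (5.54 ± 0.79, adjusted p = 0.00714). Among TGF-beta genes, of 32 tested, 6 rose and held, 6 more rose without holding, 2 fell without holding and 18 did not pass. The stress ligand gene Gdf15 (2.82) and the secreted follistatin-like gene Fstl1 (2.22) were among those that held, and the receptor gene Tgfbr3 (-0.45) and the ligand gene Bmp6 (-0.72) were the fallers, with calls that ended under the Myl7 covariate (adjusted p = 0.169 and 0.228). Ctgf, a TGF-beta and stretch target often read as a fibrosis marker, had 16255, 14960 and 9900 normalized counts in the TAC libraries, against 4976, 1576 and 10614 in the sham libraries, with overlapping groups and a change that did not pass (1.62 ± 0.59, adjusted p = 0.102).

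Activated fibroblast markers rose, and resting fibroblast markers were mixed. Of the 14 activated fibroblast markers tested, 9 rose and held, 3 more rose without holding and 2 did not pass, with medians of 3.77, 2.66 and 1.70 in TAC replicates 1 to 3 relative to the sham mean. Cthrc1, a secreted protein of matrix-producing fibroblasts, had 1682, 362 and 142 normalized counts in the TAC libraries, against 11, 3 and 9 in the sham libraries (5.82 ± 0.83, adjusted p = 0.00710), though with value-wise weights its adjusted p was 0.105. The transcription factor gene Meox1 (1.95) and the microfibril gene Mfap5 (2.35) also held. Of the 16 resting fibroblast markers tested, 4 rose and held, 1 fell and held, 5 more fell without holding and 6 did not pass. With the Myl7 covariate 6 of these rose and 2 fell, and the median was 0.24, against -0.28 without it. Cd248 and Pi16, both typical of quiescent fibroblasts, rose by 1.07 and 0.87, whereas Inmt, a methyltransferase gene, had 160, 17 and 84 normalized counts in the TAC libraries, against 822, 668 and 654 in the sham libraries (-3.51 ± 0.68, adjusted p = 0.0165). Receptors for matrix followed, as of the 25 integrins and their linkers tested, 9 rose and held, 3 more rose without holding, 1 fell without holding and 12 did not pass, with Itga9 (1.18), the fibronectin receptor chain Itga5 (0.79) and the leukocyte chain Itgam (1.42) in front. Of the 18 annexins and S100 proteins tested, 7 rose and held, 4 more rose without holding, 1 fell without holding and 6 did not pass, among them Anxa2 (1.28) and its partner S100a10 (0.79).

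Cell cycle genes rose from low levels in sham hearts. Mki67, which marks cycling cells (chr7:135689788-135716379), had 612, 1018 and 756 normalized counts in the TAC libraries, against 50, 48 and 64 in the sham libraries (3.84 ± 0.21, adjusted p = 0.00113), the smallest adjusted p of all genes tested. Cdk1, the mitotic kinase, had 289, 555 and 338 normalized counts in the TAC libraries, against 17, 19 and 27 in the sham libraries (4.13 ± 0.29, adjusted p = 0.00163). Ccna2, cyclin A, had 332, 614 and 396 normalized counts in the TAC libraries, against 23, 12 and 85 in the sham libraries (3.85 ± 0.61, adjusted p = 0.00935). TAC replicate 2 was highest for all 3 genes. Of the 46 mitosis and cytokinesis genes tested, 39 rose and held, 2 fell and held, 4 more rose without holding and 1 did not pass, with a median of 3.13. Those that fell were the securin gene Pttg1, with 1470, 1600 and 1932 normalized counts in the TAC libraries, against 2456, 2692 and 2616 in the sham libraries (-0.64 ± 0.11, adjusted p = 0.0130), and the kinetochore gene Cenpf, with 502, 351 and 440 normalized counts in the TAC libraries, against 760, 652 and 691 in the sham libraries (-0.71 ± 0.15, adjusted p = 0.0196). Replication genes rose less, with a median of 0.92, and of 42 tested, 13 rose and held, 9 more rose without holding and 20 did not pass. The maintenance methylation factor Uhrf1 (3.32), thymidine kinase Tk1 (2.31) and the transcription factor E2f1 (2.54) led. Of the 26 D cyclins, inhibitors and p53 targets tested, 5 rose and held, 3 more rose without holding, 3 fell without holding and 15 did not pass, with Ccnd1 (1.28), Rbl1 (1.32) and Trp53 (0.65) in front. Cdkn1c, a cell cycle inhibitor, fell by 1.18, a call that passed in the fits without sham replicate 1, TAC replicate 1 and TAC replicate 3 alone, and not with the Myl7 covariate (adjusted p = 0.151). Recruited macrophage and activated fibroblast markers rose in the same libraries, and which cells carried the cell cycle transcripts was not tested.

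Mitotic genes are switched on late in the cycle through a CHR element (TTTGAA) bound by the DREAM and MuvB complexes, usually beside CCAAT boxes bound by NF-Y. The promoters of the mitotic genes with the smallest p-values or largest rises are shown for that reason, with CHR and CCAAT letters in capitals on either strand and 15 flanking bases at each end.
Mki67 (chr7:135716457-135716582, minus strand): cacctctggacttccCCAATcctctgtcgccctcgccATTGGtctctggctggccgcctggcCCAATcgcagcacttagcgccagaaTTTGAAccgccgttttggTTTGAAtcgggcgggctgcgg
Cdk1 (chr10:69352913-69353135, minus strand): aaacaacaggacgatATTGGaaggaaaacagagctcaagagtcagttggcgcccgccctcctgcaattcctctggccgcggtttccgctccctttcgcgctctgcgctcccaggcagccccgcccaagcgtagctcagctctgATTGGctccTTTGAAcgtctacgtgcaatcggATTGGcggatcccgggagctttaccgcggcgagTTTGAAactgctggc
Ube2c (chr2:164769686-164769920, plus strand): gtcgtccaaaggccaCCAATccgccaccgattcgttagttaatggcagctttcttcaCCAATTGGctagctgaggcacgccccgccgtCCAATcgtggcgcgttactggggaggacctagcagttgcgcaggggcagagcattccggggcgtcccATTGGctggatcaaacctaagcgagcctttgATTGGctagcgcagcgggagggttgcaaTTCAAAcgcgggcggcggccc
Prc1 (chr7:80294399-80294466, plus strand): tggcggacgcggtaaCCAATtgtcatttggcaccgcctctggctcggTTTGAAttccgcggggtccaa
CHR letters were present within 250 bases before the start in 14 of the 40 mitotic genes with an entry (35.0%), against 1389 of 10899 tested genes (12.7%), and all 14 rose. CCAAT was present in 27 of the 40 (67.5%), against 4374 of 10899 (40.1%), and 26 of the 27 rose while 1 fell. Among replication genes the shares were 17.1% and 62.9% of 35. Of all 46 mitotic genes tested 43 rose, so these counts of risers do not set the genes with the letters apart. A match describes letters and is not a bound site.

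Interferon and antigen presentation genes rose in the TAC hearts. Isg15, a ubiquitin-like modifier, had 357, 374 and 283 normalized counts in the TAC libraries, against 105, 148 and 127 in the sham libraries (1.41 ± 0.18, adjusted p = 0.00493). Ifit3, an interferon-induced tetratricopeptide protein, had 628, 569 and 458 normalized counts in the TAC libraries, against 215, 197 and 191 in the sham libraries (1.44 ± 0.14, adjusted p = 0.00331). Of the 42 interferon-stimulated genes tested, 28 rose and held, 6 more rose without holding and 8 did not pass, with medians of 1.01, 0.90 and 0.80 in TAC replicates 1 to 3 relative to the sham mean. Lgals3bp (1.56), a secreted glycoprotein, and Ifit2 (1.26) were the other leaders by p-value. Of the 22 class I antigen presentation genes tested, 11 rose and held, 1 more rose without holding and 10 did not pass. The peptide transporter gene Tap1 (1.08) and the class I light chain gene B2m (1.02) held, while H2-Q6 (1.41) has near-identical neighbours and its share of reads is uncertain. The class I medians were 0.67, 0.37 and 0.75 and the class II medians 1.15, 0.52 and 0.95 in TAC replicates 1 to 3, so both were lowest in TAC replicate 2. Of the 11 class II genes tested, 4 rose and held, 5 more rose without holding and 2 did not pass, and the 4 that held included the lysosomal enzyme genes Ifi30 (1.14), Lgmn (0.76) and Ctss (1.72). Cd74, the class II invariant chain, had 4548, 2341 and 4308 normalized counts in the TAC libraries, against 2536, 2181 and 2006 in the sham libraries. Its groups overlapped, and its call (0.68 ± 0.24, adjusted p = 0.0918) ended without any library other than TAC replicate 2.

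The interferon-stimulated response element (ISRE, searched on both strands as GAAA, any 2 bases, GAAA) is the site of the ISGF3 and IRF factors. Promoters of Ifit3 and Isg15 are shown because both are among the risers named here, with each ISRE in capitals.
Ifit3 (chr19:34583358-34583431, plus strand): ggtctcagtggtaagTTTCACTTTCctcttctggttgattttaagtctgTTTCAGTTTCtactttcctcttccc
Isg15 (chr4:156200860-156200911, minus strand): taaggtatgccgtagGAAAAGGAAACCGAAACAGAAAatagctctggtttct
The element was found in 15 of the 30 interferon-stimulated genes with an entry (50%), against 350 of 10899 tested genes (3.21%). Of these 15, 13 rose and 0 fell, and in the whole list of 42 tested 34 rose and 0 fell. In Isg15 the letters overlap and form 3 matches in 1 run. The same search gave no match in this window of Ifit2, Lgals3bp or Tap1.

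Macrophage genes and chemoattractants rose, and eosinophil attractants fell. Of the 12 recruited and phagocytic macrophage markers tested, 7 rose and held, 3 more rose without holding and 2 did not pass, and their summed level was 1677 to 4693 normalized counts in TAC and 726 to 955 in sham hearts. The lipid receptor gene Trem2 (2.28), the monocyte chemokine receptor gene Ccr2 (2.18) and the lysosomal marker Cd68 (1.51) led. Lgals3, galectin-3, had 1018, 398 and 242 normalized counts in the TAC libraries, against 113, 73 and 121 in the sham libraries (2.19 ± 0.47, adjusted p = 0.0221). Spp1, osteopontin, had 583, 273 and 48 normalized counts in the TAC libraries, against 64, 3 and 14 in the sham libraries. These groups overlapped, and the call (3.66 ± 1.12, adjusted p = 0.0641) was kept only without sham replicate 1 or TAC replicate 3. Of the 12 resident macrophage markers tested, 2 rose and held, 2 more rose without holding and 8 did not pass. Complement genes were mixed, since of 23 tested, 7 rose and held, 2 more rose without holding, 3 fell without holding and 11 did not pass. The C1q chains C1qa (1.15) and C1qb (1.24) and clusterin Clu (1.57) rose, C3 did not pass (-0.20 ± 0.24, adjusted p = 0.606), and Cfd, a fat cell gene, fell without holding (-3.25). Of the 26 chemokines and receptors tested, 6 rose and held, 2 fell and held, 7 more rose without holding, 1 more fell without holding and 10 did not pass. Cxcl10, an interferon-induced attractant of T cells, rose by 2.79, and the decoy receptor gene Ackr4 by 1.82. Ccl11 (eotaxin-1) had 41, 21 and 36 normalized counts in the TAC libraries, against 139, 168 and 73 in the sham libraries (-1.89 ± 0.37, adjusted p = 0.0174), and Ccl24 (eotaxin-2) had 39, 26 and 36 normalized counts in the TAC libraries, against 84, 83 and 87 in the sham libraries (-1.32 ± 0.23, adjusted p = 0.0118). In the gp130 and acute phase list, of 18 tested, 3 rose and held, 3 more rose without holding, 3 fell without holding and 9 did not pass, and Serpina3n, a protease inhibitor of the acute phase, had 2448, 1861 and 583 normalized counts in the TAC libraries, against 307, 216 and 331 in the sham libraries (2.30 ± 0.47, adjusted p = 0.0196).

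Several metabolic genes were among the largest falls. Phkg1, the catalytic subunit of muscle phosphorylase kinase, had 328, 176 and 410 normalized counts in the TAC libraries, against 1210, 1006 and 948 in the sham libraries (-1.87 ± 0.28, adjusted p = 0.00818). Pfkfb1, which sets the level of fructose 2,6-bisphosphate, had 241, 97 and 172 normalized counts in the TAC libraries, against 911, 526 and 486 in the sham libraries (-1.94 ± 0.35, adjusted p = 0.0135). Acot1, a fatty acyl-CoA thioesterase, had 141, 69 and 96 normalized counts in the TAC libraries, against 661, 370 and 490 in the sham libraries (-2.32 ± 0.29, adjusted p = 0.00491), and Acsm5, a medium-chain acyl-CoA synthetase, fell by 2.00. For all 4 genes every TAC library was below every sham library. Ech1, an enzyme of unsaturated fatty acid oxidation, had 19226, 20758 and 28375 normalized counts in the TAC libraries, against 44103, 44850 and 48163 in the sham libraries (-1.02 ± 0.16, adjusted p = 0.00853). Cd36, the fatty acid transporter, had 38343, 34056 and 40221 normalized counts in the TAC libraries, against 53965, 56711 and 53330 in the sham libraries (-0.55 ± 0.12, adjusted p = 0.0231). Ppargc1a, a coactivator of mitochondrial genes, fell (-0.36 ± 0.10, adjusted p = 0.0499), a call that was kept only without TAC replicate 3. Of the 27 plasma membrane carriers tested, 1 rose and held, 5 fell and held, 6 more rose without holding, 1 more fell without holding and 14 did not pass. The lactate exporter gene Slc16a3 (1.80) rose, and the fatty acid carrier gene Slc27a1 (-0.88) fell, by 0.56 with the Myl7 covariate. Creatine synthesis and uptake genes Gatm (0.94) and Slc6a8 (0.55) rose with the brain-type creatine kinase gene Ckb (0.53), while muscle creatine kinase Ckm had 55230, 60677 and 89724 normalized counts in the TAC libraries, against 57405, 77065 and 69426 in the sham libraries and did not pass (-0.01 ± 0.21, adjusted p = 0.980, with a sign that differed between fits). Over that list, of 17 tested, 3 rose and held, 3 fell without holding and 11 did not pass.

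None of the mitochondrial lists had a gene that rose, and how many fell depended on the fit. Of the 14 genes of the mitochondrial genome tested, 2 fell and held, 2 more fell without holding and 10 did not pass. In 10 of the 14 every TAC library lay below every sham library. How often this occurs over all 13995 genes was not counted, so the 10 have no share to be set against. The authors' deposited test had 10 lower, and limma with value-wise weights or without the trend had 8. The 2 that held (ND3 and ND4L) were counted at 35 to 437 in TAC and 73 to 696 in sham hearts. The share of counts from this genome was lower in all TAC libraries. It is made up almost wholly of abundant genes such as COX1 and CYTB, and ND3 and ND4L add little to it. Of the 48 mitochondrial ribosomal proteins tested, 6 fell without holding and 42 did not pass, a share of fallers near the 10.0% of all genes. Leaving out 1 library gave 12 fallers without TAC replicate 3, 1 without sham replicate 3 and 0 in the other fits, library size alone or no trend gave 0, and the Myl7 covariate gave 32. Of the 33 import, chaperone and protease genes tested, 1 fell and held, 4 more fell without holding and 28 did not pass, and the 1 that held was the protease subunit gene Clpx (-0.48). Fallers in this list numbered 1 to 11 when 1 library was left out, 1 at library size alone and 15 with the Myl7 covariate. Of the 22 dynamics and mitophagy genes tested, 1 fell and held, 8 more fell without holding and 13 did not pass, and between 1 and 5 fell when 1 library other than sham replicate 3 or TAC replicate 3 was left out, 5 at library size alone and 13 with the Myl7 covariate. Pink1, the kinase that marks damaged mitochondria, had 13058, 11630 and 16950 normalized counts in the TAC libraries, against 26153, 26861 and 25289 in the sham libraries (-0.93 ± 0.14, adjusted p = 0.00873). Of the 37 antioxidant and glutathione enzymes tested, 2 rose and held, 3 fell and held, 2 more rose without holding, 6 more fell without holding and 24 did not pass. The glutathione transferase genes Gstm1 (-1.03) and Gstk1 (-0.90) fell, and heme oxygenase Hmox1 (1.60) and glutathione peroxidase Gpx1 (0.62) rose.

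Genes of protein synthesis and quality control gave few calls. Of the 59 cytosolic ribosomal proteins tested, 2 rose without holding, 1 fell without holding and 56 did not pass. Of the 33 translation factors tested, 1 rose and held, 2 fell without holding and 30 did not pass, and of the 27 ribosome biogenesis genes tested, 1 fell and held, 2 rose without holding, 1 more fell without holding and 23 did not pass. Of the 32 proteasome subunits tested, 32 did not pass, with 1 at an unadjusted p under 0.05 and 0 passing in the authors' deposited test, and 5 fell with the Myl7 covariate. Of the 26 cytosolic chaperones tested, 1 rose and held, 2 more rose without holding and 23 did not pass, and Hspb6, a small heat shock protein of muscle, had 27564, 51006 and 35857 normalized counts in the TAC libraries, against 19759, 20484 and 20922 in the sham libraries (0.86 ± 0.20, adjusted p = 0.0304), which did not pass with the Myl7 covariate (adjusted p = 0.125). In the endoplasmic reticulum list, of 30 tested, 2 fell and held, 3 rose without holding and 25 did not pass, and those that held were the chaperone genes Hspa5 (-0.52) and Canx (-0.48). Lysosomal genes differed from the rest, as of the 31 autophagy and lysosome genes tested, 8 rose and held, 3 more rose without holding, 1 fell without holding and 19 did not pass, led by Gusb (0.85) and Cd68. The summed macrophage markers given above rose in the same libraries, and their part in the lysosomal rise was not tested.

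Lists of regulators differed in how many changes held. Over all genes tested, 24.2% rose or fell and 9.25% held. Of the 31 cardiac transcription factors tested, 1 rose without holding, 5 fell without holding and 25 did not pass. Of the 19 clock genes tested, 2 fell and held, 1 rose without holding and 16 did not pass, the 2 being Hlf (-1.10) and Nr1d1 (-0.70), and 8 fell without TAC replicate 3, against 2 in each of the other leave-one-out fits. Of the 25 immediate early genes tested, 1 fell and held, 2 rose without holding, 4 more fell without holding and 18 did not pass. The flow-sensitive factor Klf2 (-0.87) fell, while Egr2 and Egr3 rose (2.00 and 1.28) and lost their calls without TAC replicate 2. Of the 32 angiogenic and hypoxia genes tested, 3 rose and held, 2 fell and held, 2 more rose without holding, 3 more fell without holding and 22 did not pass. Angpt1, a ligand that steadies vessels, had 738, 400 and 349 normalized counts in the TAC libraries, against 1388, 1338 and 888 in the sham libraries (-1.33 ± 0.29, adjusted p = 0.0228), and Nrp2, a coreceptor for vascular growth factors, rose by 1.11. In the insulin-like growth factor axis, of 17 tested, 1 rose and held, 3 more rose without holding, 3 fell without holding and 10 did not pass, with the binding protein gene Igfbp7 (1.54) the 1 that held. Of the 27 Wnt genes tested, 2 rose without holding, 2 fell without holding and 23 did not pass.

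Other cell type markers give the cellular setting of these lists. Of the 12 pan-cardiomyocyte markers tested, 2 rose without holding, 1 fell without holding and 9 did not pass. Myh6, the adult myosin heavy chain, had 448175, 379024 and 530083 normalized counts in the TAC libraries, against 537194, 492787 and 595390 in the sham libraries (-0.27 ± 0.26, adjusted p = 0.510) and myoglobin Mb had 329541, 385769 and 496297 normalized counts in the TAC libraries, against 424353, 554052 and 450497 in the sham libraries (-0.25 ± 0.26, adjusted p = 0.556), neither past the threshold. Myh7, the beta heavy chain of the fetal mouse ventricle, had 39649, 28367 and 25028 normalized counts in the TAC libraries, against 6116, 1121 and 4164 in the sham libraries (3.31 ± 0.55, adjusted p = 0.0105). Of the 11 atrial markers tested, 1 rose and held, 3 fell and held, 1 more fell without holding and 6 did not pass, with Kcnj3 (-1.17) and Sbk2 (-2.17) among the fallers, Sbk2 by 1.29 with the Myl7 covariate. Of the 15 endothelial markers tested, 3 rose without holding and 12 did not pass, and of the 8 smooth muscle markers tested, 1 rose and held, 2 fell and held and 5 did not pass, the fallers being Myh11 (-1.10) and Lmod1 (-1.63). The riser was Des, given above with the Z-disc genes and so not particular to smooth muscle. Of the 9 adipocyte markers tested, 7 fell without holding and 2 did not pass, with medians of -1.04, -4.51 and -5.07 in TAC replicates 1 to 3, and 1 fell without sham replicate 1, 4 without sham replicate 3 and 0 without TAC replicate 2. With the Myl7 covariate 1 fell, and 2 fell in the authors' deposited test. Neutrophil and lymphocyte markers were scarce, at 63 to 182 and 289 to 579 summed counts in TAC and 34 to 52 and 282 to 468 in sham hearts. Of the erythroid and conduction system markers, 0 rose or fell, with 0 and 1 at an unadjusted p under 0.05 and 0 and 1 passing in the authors' deposited test. Male-linked Ddx3y was present and Xist was at 0 or 1 in all 6 libraries.

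**Figure D3:**
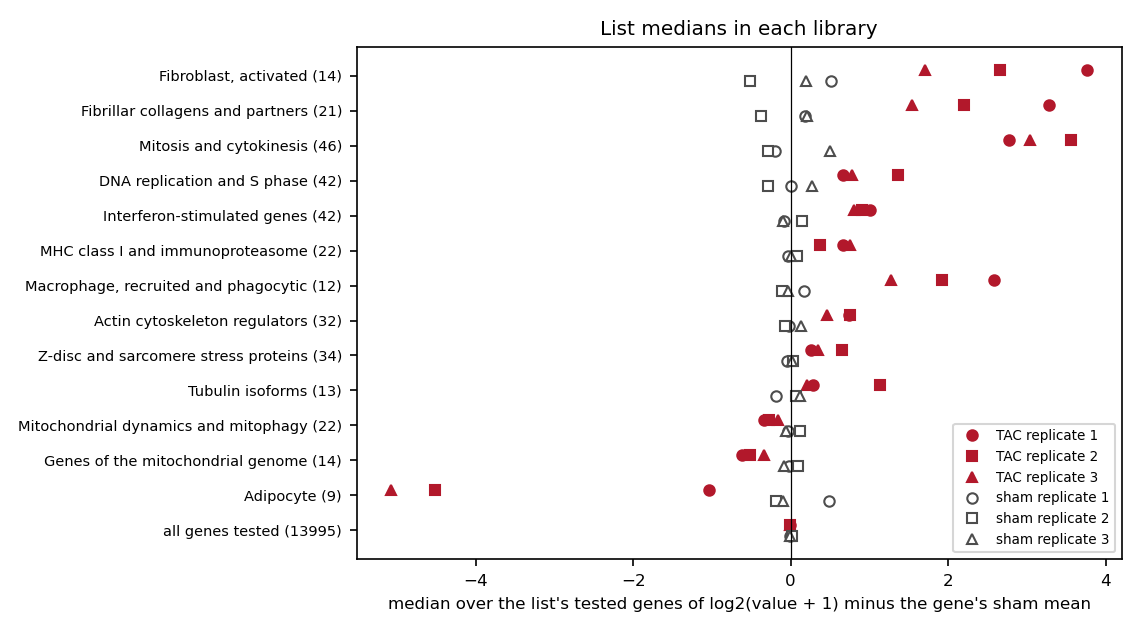
Median over each list's tested genes (number in parentheses) of log2(normalized count + 1) minus the gene's sham mean, for each library, with TAC (filled red) above sham (open grey) in each row. Fibrillar collagen, activated fibroblast and recruited macrophage medians are highest in TAC replicate 1 and lowest in TAC replicate 3, tubulin and replication medians are highest in TAC replicate 2, and interferon medians lie close together at 1.01, 0.90 and 0.80.

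Genes that rose or fell were also ranked by abundance instead of fold. Among called genes, the 10 that gained most CPM (counts scaled to a library total of 1000000) were Ankrd1, Acta1, Mybpc3, Des, Hspb7, Clu, Nppa, Col3a1, Tnnc1 and Xirp2. Ankrd1 averaged 4881 CPM in TAC hearts and 1155 in sham hearts, and clusterin (Clu), a secreted chaperone, averaged 1924 CPM in TAC hearts and 530 in sham hearts. Of these 10, Mybpc3, Hspb7 and Tnnc1 did not hold. The 10 called genes that lost most were Atp2a2, Rnr2, Pln, Tnni3, Gsn, Ech1, Tcap, Ldhb, Mdh1 and Cd36, of which Ech1 and Cd36 held. Genes that did not pass are outside this ranking, among them the mitochondrial COX1 and CYTB, whose means were lower in TAC by more CPM than that of Atp2a2 (-0.45 ± 0.48, adjusted p = 0.561 and -0.39 ± 0.36, adjusted p = 0.498). Neither gene's groups overlapped. COX1 had 2194975 to 2875483 normalized counts in TAC and 3098681 to 3722129 in sham libraries, and CYTB 1129729 to 1392319 and 1493321 to 1847633. Atp2a2, the calcium pump of the sarcoplasmic reticulum, averaged 8828 CPM in TAC hearts and 12810 in sham hearts. Among the leave-one-out fits, the calls of Atp2a2, Rnr2, Pln, Tnni3, Mdh1 and Mybpc3 were each kept only without TAC replicate 3. That of Tnnc1 was kept only without TAC replicate 1. All of these genes passed in limma with value-wise weights and in the authors' deposited DESeq2 test. For Atp2a2 the adjusted p was 0.0132 with the weights and 7.5e-10 in the deposited test, and for Pln 0.0227 and 2.3e-05. With the Myl7 covariate, Atp2a2, Mybpc3, Hspb7 and Tnnc1 did not pass (adjusted p = 0.125, 0.200, 0.148 and 0.362).

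**Figure D4:**
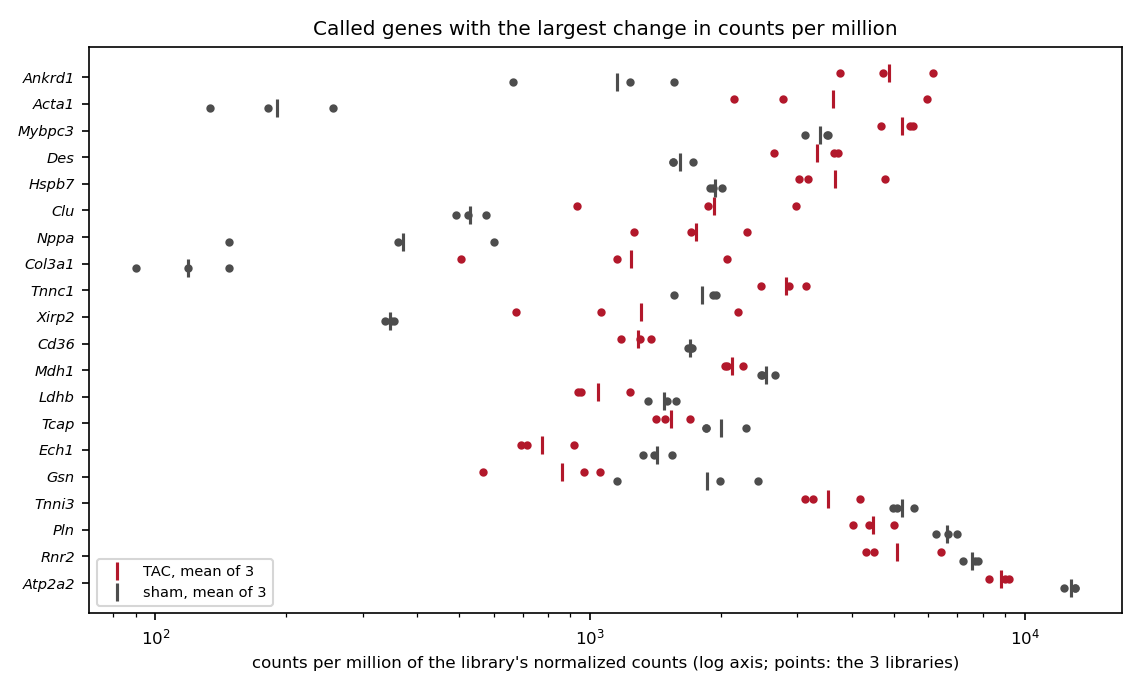
CPM in each library (points) and group means (ticks) on a log axis for the 20 called genes with the largest gain or loss in mean CPM, TAC (red) above sham (grey) for each gene. The upper 10 genes are higher in TAC and the lower 10 lower in TAC, from Ankrd1 at the top to Atp2a2 at the bottom.

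The genes with the strongest evidence and largest folds outside these lists covered several functions. Sprr1a, a small proline-rich protein of stressed epithelium and heart muscle (chr3:92483954-92485881), had 1468, 1358 and 90 normalized counts in the TAC libraries, against 2, 0 and 6 in the sham libraries (7.68 ± 1.11, adjusted p = 0.00722), the largest log2 rise named. Star, which carries cholesterol into mitochondria, had 826, 1321 and 121 normalized counts in the TAC libraries, against 35, 37 and 30 in the sham libraries (3.87 ± 0.76, adjusted p = 0.0170). With value-wise weights neither passed (adjusted p = 0.162 and 0.114). Mest, an imprinted gene expressed from the paternal copy, had 797, 884 and 692 normalized counts in the TAC libraries, against 90, 139 and 134 in the sham libraries (2.72 ± 0.19, adjusted p = 0.00163). The falls of smallest adjusted p were those of the anoctamin gene Ano10, with 754, 584 and 757 normalized counts in the TAC libraries, against 1629, 1870 and 2015 in the sham libraries (-1.40 ± 0.13, adjusted p = 0.00313), and the microtubule-severing gene Fign, with 91, 89 and 94 normalized counts in the TAC libraries, against 250, 239 and 222 in the sham libraries (-1.36 ± 0.14, adjusted p = 0.00332). Fitm2, which helps form lipid droplets, had 1821, 1647 and 1999 normalized counts in the TAC libraries, against 3554, 3363 and 3091 in the sham libraries (-0.87 ± 0.10, adjusted p = 0.00456). Lingo3 (-1.28) and Fam174b (-0.76) completed the 5 smallest, and the desmosomal plakin gene Ppl (-1.93) and the galectin gene Lgals4 (-1.86) were among the 10 largest falls.

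The TAC libraries differed among themselves in how far they moved. Of the 908 genes whose rise held, 451 were highest in TAC replicate 1, 406 in TAC replicate 2 and 51 in TAC replicate 3, and 610 had their lowest TAC value in TAC replicate 3. Of the 386 whose fall held, 240 were lowest in TAC replicate 2, 113 in TAC replicate 1 and 33 in TAC replicate 3. The fibrillar collagen medians were 3.28, 2.20 and 1.54 in TAC replicates 1 to 3, and the tubulin medians 0.29, 1.13 and 0.21. The mitosis medians were 2.77, 3.57 and 3.05, so TAC replicate 3 lay between the other two there. Differences between single libraries have no replicate and no test.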

How the data were processed

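RNA libraries from mouse hearts after TAC (3) or sham surgery (3), all on the fat-free diet, were analysed from the deposited table of 27179 genes, and the table of the other diet was not used here. Per the submitters' processing notes, STAR, Subread, featureCounts and DESeq2 were used with build mm10, and per the labels the libraries came from a stranded mRNA kit and the false discovery rate was 10%. Aligner settings, versions and the strand used in counting are not given in the sources used here. The values are read counts that the authors divided by a size factor per library and rounded to whole numbers, as read from the values, so they were treated as a score and no count model was fitted to them. Depth in reads is therefore unknown and no counting intervals are given. The authors' deposited log2 fold changes are shrunken, and the deposited adjusted p-value is from DESeq2. Of the symbols, 847 were missing and 27 stored as dates were restored by gene ID. All 6 columns were matched by the group and number in their header, and 0 sample columns of this table were left unmatched.

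Genes with at least 10 normalized counts in 3 libraries (13995) were tested with limma 3.58.1 on log2(value + 1) with a mean-variance trend, two-sided, with Benjamini-Hochberg adjustment and a threshold of 0.1. Fits that left out 1 library used the same genes. The code was tested on simulated data with 200 changed genes and a single spread for all genes, which was not fitted to these libraries. There it recovered 6% of 1.5-fold, 54% of 2-fold and 98% of 4-fold changes, and 10.4% of its calls were false. Single values per library were compared with an exact permutation test (scipy 1.17.1). Tables were handled with R 4.3.3 (package data.table, 1.17.8), Python 3.11.15, pandas 2.3.3 and numpy 2.4.6, and figures were drawn with matplotlib 3.10.9. Promoters were RefSeq entries on GRCm38.p6, available for 10899 of the genes tested, and coordinates of genes are those of the deposited table.

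The 66 gene lists (44 of functions and 22 of cell type markers), the rule for named genes and the alternatives were chosen with earlier results of these data known, so no list has a test of its own. Named were the 10 largest rises and 10 largest falls that held, with groups apart and at least 5 CPM, the 10 largest gains and losses in mean CPM among called genes, the 5 smallest adjusted p in each direction, up to 3 genes per list that held and up to 2 of the rarer direction, and 25 set genes of hypertrophy, of which Fgf21 was not tested. Not all are given. Actg1 and Fhl1 (promoters), COX1 and CYTB were named after their values were seen.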

Additional observations from a re-analysis of the deposited data

How the results depend on the processing

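Over the 18 alternatives, the count of genes higher in TAC ran from 1680 (no trend) to 2766 (library size alone) apart from those that left out libraries, and the count of genes lower from 704 (library size alone) to 1507 (Myl7 covariate). Library size alone moved the lower count beyond 1.5 times. Leaving out 1 library gave 1008 to 2176 higher and 449 to 1751 lower. Without the 3 libraries above 1000 Myl7, limma passed 0 higher and 0 lower in the 3 libraries left, where 2117 genes had an unadjusted p under 0.05. None of the 197 named genes that passed changed sign in the fits run, while Ckm and C3, which did not pass, did. Counts within lists moved most with the Myl7 covariate, with risers at 9 against 15 for Z-disc genes, 20 against 12 for TGF-beta, 9 against 4 for the insulin-like growth factor axis, 8 against 2 for Wnt and 8 against 13 for chemokines, and with cytosolic ribosomal fallers at 6 against 1. At library size alone risers were 7 against 2 for calcium and MAPK genes, 5 against 1 for translation factors, 8 against 4 for antioxidant enzymes (fallers 4 against 9) and 11 against 7 for plasma membrane carriers. Without the trend, proteoglycan risers were 10 against 16 and carrier risers 3 against 7, and with the replicate block atrial fallers were 9 against 4. Medians of lists near 0 changed sign between fits, as for Wnt, at 0.05 with library size alone and -0.09 in the deposited scaling. The authors' deposited DESeq2 table passed 2088 higher and 1450 lower at the same threshold. Its shrunken log2 fold change was smaller by more than 1.5 times for 22 of the 197 named genes that passed, and of opposite sign for 0. Of the 202 named genes, 26 lost their call with the Myl7 covariate, 17 without the trend, 16 at library size alone, 10 with the replicate block and 7 with value-wise weights. The cause was not tested. The matrix lists' share of counts differed by 1.00 percentage points between TAC and sham, and by 1.22 with mitochondrial genes left out of the total. The log2 rise of Mt2 was 2.99 without the 3 libraries and 1.87 with them, and the changes of Clpx and Ckb were -0.31 and 0.32 without them. With the Myl7 covariate Myh11 and Kcna1 stood at -0.73 and -0.86, against -1.10 and -1.64. The labels do not say whether libraries with the same replicate number belong together. Deviations of same-numbered libraries correlated at 0.44, 0.14 and -0.16 for replicates 1, 2 and 3, and those of differently numbered ones at -0.44 to 0.34. With 3 libraries a group these correlations cannot decide whether the libraries are paired. With the replicate block, 1974 genes were higher and 1348 lower. With 3 libraries a group, small changes and low counts are the limit.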

Other observations

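Markers of cell types that a whole heart holds in small numbers made up short lists. Over all genes tested, 24.2% rose or fell and 9.25% held. Of the 6 mast cell markers tested, 1 rose and held, 1 more rose without holding and 4 did not pass, the stem cell factor receptor gene Kit (1.20) being the 1 that held, and of the 6 T and B lymphocyte markers tested, 1 rose without holding and 5 did not pass. Of the 8 pericyte markers tested, 1 rose and held, 1 fell without holding and 6 did not pass, with the proteoglycan gene Cspg4 (0.72) the one that held. Of the 7 lymphatic markers tested, 1 rose and held, 1 more rose without holding, 1 fell without holding and 4 did not pass, and the lymphatic growth factor receptor gene Flt4 (0.58) held. Of the 6 Schwann and neuron markers tested, 1 fell and held, 2 more fell without holding and 3 did not pass, and of the 9 mesothelial markers tested, 1 rose without holding and 8 did not pass. Of the 6 endocardial markers tested, 1 fell without holding and 5 did not pass. Of the 2 neutrophil markers tested, 1 rose and held and 1 did not pass, that gene being the receptor Csf3r (1.58). Among skeletal muscle markers, of 4 tested, 1 rose and held, 1 more rose without holding and 2 did not pass. The fast troponin T gene Tnnt3 had 100, 71 and 31 normalized counts in the TAC libraries, against 10, 8 and 2 in the sham libraries (3.20 ± 0.61, adjusted p = 0.0157).

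The genes of the mitochondrial genome were counted at very unequal levels. COX1 stood at 2194975 to 2875483 normalized counts in TAC libraries and 3098681 to 3722129 in sham libraries. COX2, COX3 and ATP6, which come from the same long transcript, stood at 19 to 75 in TAC and 12 to 153 in sham libraries. ND3 and ND4L, the 2 mitochondrial genes whose fall held, are also among those with low counts. How the authors' counting treated these genes is not given in the sources used here, so their changes are uncertain.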
